A study of Zea mays with 6 samples.

Results

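The glossy genes of maize (Zea mays) are named for mutants whose seedling leaves lose the dull wax bloom and appear shiny. The members described here were 8 genes of the 44146 in the deposited tables, chosen by identifier: the wax genes gl1 (Zm00001d020557), gl2 (Zm00001d002353), gl4 (Zm00001d051787), gl8 (Zm00001d017111), gl13 (Zm00001d039631) and gl26 (Zm00001d008622), and the regulators gl15 (Zm00001d046621) and fdl1 (Zm00001d022227). The files carry identifiers of the B73 RefGen_v4 annotation without names, so each name is that of the selection rule and was not checked against sequence. A RefSeq gene table lists 5 of the 8 names, and none of its entries is paired with the identifiers of the files.

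Cuticular wax is made in the epidermis from very-long-chain fatty acids. A membrane-bound elongase lengthens acyl-CoA chains in a cycle of condensation, reduction, dehydration and a further reduction, and the products are turned into aldehydes, alcohols and alkanes and exported to the surface. In maize the leaves of the juvenile phase carry the wax crystals, and adult leaves largely lack them.

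RNA was sequenced from shoots of untreated seedlings at the 3-leaf stage, with the roots removed. The wild type (WT) and a knockout line for Gβ, a subunit of the signalling heterotrimeric G protein (genotype GBetaKO, titled KO1), had 3 libraries each, described as biological replicates. The labels name 1 knockout line, and give neither the allele, the inbred background nor the number of plants behind a library, so any other feature of that line cannot be told apart from the loss of Gβ. Levels were deposited as FPKM, fragments per kilobase of gene length, scaled by a factor for each library. Reads worked back from these values numbered 14757903 to 17665944 per library. Wild-type replicate 3 and knockout replicate 2 stood apart from the other libraries of their genotype on the second principal component of all tested genes (83.8 and 37.8, against -48.6 to -11.6 in the other 4), so results that rest on them are also given without them. Because whole shoots were sampled, fewer epidermal cells and less RNA per epidermal cell cannot be told apart. Tissue markers and the targeted gene were not analysed here, since their identifiers are not named.

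In the knockout gl2, gl13 and gl15 fell and fdl1 rose, while gl1, gl4, gl8 and gl26 did not pass the test. These 4 calls among 8 genes stand against 31.2% of all 23232 tested genes called in either direction, 15.2% rising and 16.0% falling. The members' median log2 fold change was -0.43 and their median absolute log2 fold change 1.22, against 0.02 and 0.50 over all tested genes. The median of -0.43 lies between gl8 (-0.33) and gl26 (-0.53), neither of them called. Without wild-type replicate 3 these were 0.17 and -0.02, so this median rested in part on that library. The median absolute value of 1.22 lies between gl4 (1.06, not called) and fdl1 (1.37), and without that library gl4 was 2.42. All 8 genes were above 1 FPKM in every library, so none entered the test through a single genotype. The test was limma on log2(FPKM + 1), with p-values adjusted over all tested genes and a threshold of 0.05.

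**Figure D1:**
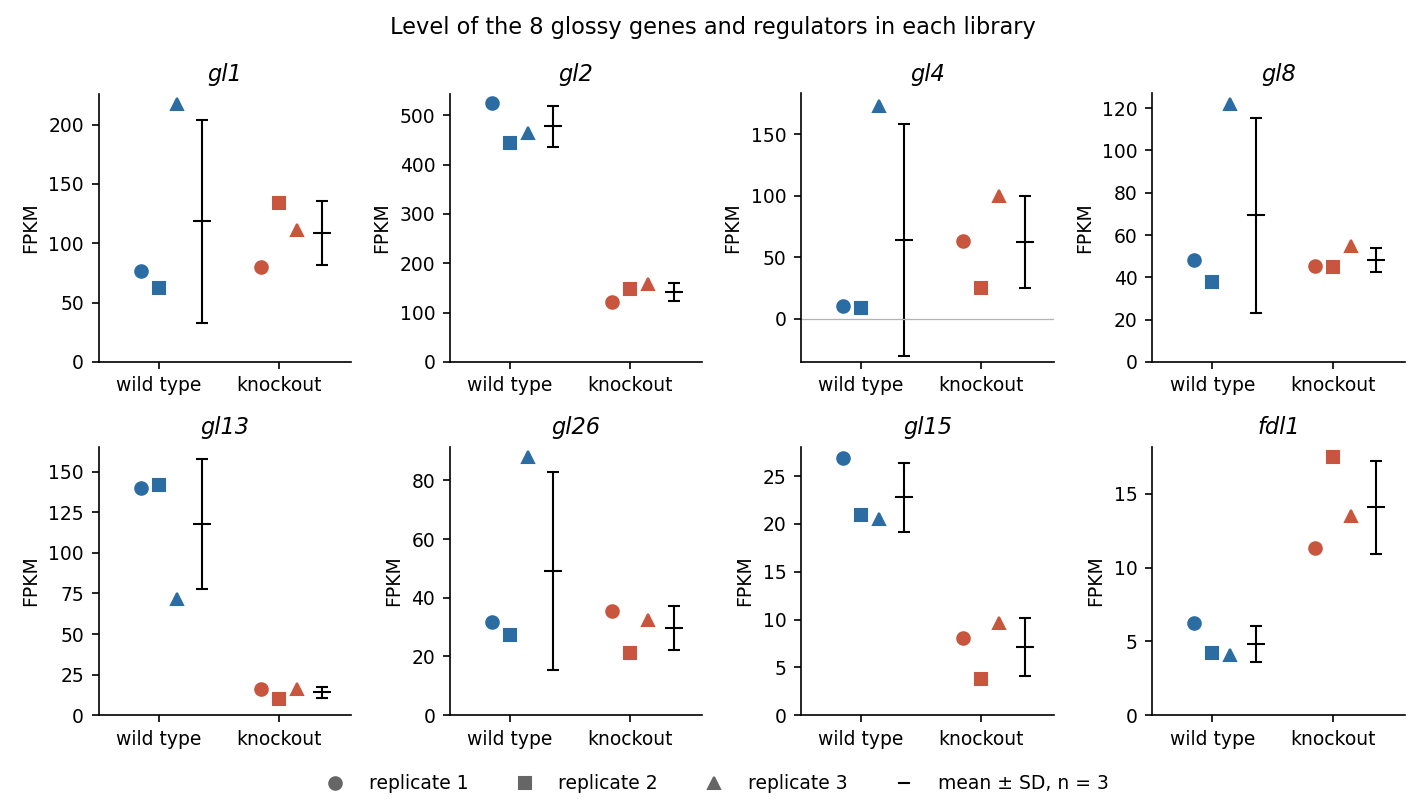
Level of each gene in FPKM (vertical axes from 0, or below 0 where the SD bar reaches there) in the 3 wild-type libraries (blue) and the 3 knockout libraries (red), with symbols for the replicate number and black bars for the mean ± SD. The genotypes do not overlap for gl2, gl13, gl15 and fdl1, and wild-type replicate 3 is the highest of the 6 libraries for gl1, gl4, gl8 and gl26.

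The gene gl2 encodes an acyltransferase-like protein related to Arabidopsis CER2, which acts with the elongase on the longest acyl chains. It was the most abundant of the 8 in every library. Its level was 524, 444 and 465 FPKM in wild-type replicates 1, 2 and 3, and 122, 147 and 157 FPKM in knockout replicates 1, 2 and 3. The groups lay far apart and the replicates within each were close: the mean was 478 ± 41.3 FPKM in the wild type and 142 ± 18 FPKM in the knockout (SD, n = 3 each). The level was thus 3.35-fold lower in the knockout line (log2 fold change -1.75 ± 0.23, SE; limma adjusted p = 0.0024), and 4.87% of the tested genes had a lower fold change. Even so, gl2 remained higher than 97.3% to 97.9% of the tested genes in the knockout libraries, against 99.1% to 99.5% in the wild type.

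The gene gl13 encodes an ABC transporter, the class of membrane protein that carries wax lipids out of epidermal cells. Its wild-type levels were 140, 142 and 71.5 FPKM in replicates 1, 2 and 3. In the knockout it was at 15.9, 10.2 and 15.9 FPKM. Every knockout library was below every wild-type library, and wild-type replicate 3 was the lowest of its group. From 118 ± 40.3 FPKM the mean fell to 14 ± 3.34 FPKM (SD, n = 3 each). The level was 7.7-fold lower (log2 fold change -2.95 ± 0.33, SE, on FPKM + 1; limma adjusted p = 0.0016), and 0.835% of the tested genes had a lower log2 fold change. By level gl13 had rank 2 of the 8 genes in wild-type replicates 1 and 2 and rank 6 in wild-type replicate 3, and in the knockout libraries it had rank 6 or 7.

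The elongase genes are gl4, gl8 and gl26. The gene gl4 encodes a 3-ketoacyl-CoA synthase, the condensing enzyme that opens each cycle and sets chain length, and is related to Arabidopsis CER6. Its level was 10 and 8.53 FPKM in wild-type replicates 1 and 2 and 173 FPKM in wild-type replicate 3. Knockout replicates 1, 2 and 3 gave 62.8, 24.7 and 99.9 FPKM. All knockout libraries were above wild-type replicates 1 and 2 and below wild-type replicate 3, so the genotypes overlapped. The means were close, at 63.8 ± 94.5 FPKM in the wild type and 62.5 ± 37.6 FPKM in the knockout (SD, n = 3 each). On the log2 scale the genotypes differed by 1.06 ± 1.18 (SE; limma adjusted p = 0.53), with a 95% interval of -1.79 to 3.91.

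This value rested on wild-type replicate 3. Without that library the log2 fold change of gl4 was 2.42, or 5.36-fold (limma adjusted p = 0.021), where 37.1% of the tested genes were called. With knockout replicate 2 also left out it was 2.97, or 7.83-fold (limma adjusted p = 4.0e-04), where 51.4% were called. Both libraries were left out because they stood apart in these same data, and gl4 itself departed in each. These fits therefore understate the spread between replicates, which lowers their p-values. The low wild-type values came from 206 and 191 reads, and the high one from 3403 reads.

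The gene gl8 encodes the 3-ketoacyl-CoA reductase of the elongase. The RefSeq table also lists a second copy, gl8b, and reads shared between the copies cannot be separated with these files. Its level was 48.2, 37.6 and 122 FPKM in wild-type replicates 1, 2 and 3, and 45.3, 44.9 and 54.8 FPKM in the knockout. The knockout values lay inside the wild-type range. The log2 fold change of gl8, -0.33 ± 0.43 (SE), did not pass the test (limma adjusted p = 0.61), with a 95% interval of -1.37 to 0.72.

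The gene gl26 encodes an enoyl-CoA reductase, the enzyme that closes each elongation cycle. It was at 31.9, 27.2 and 87.8 FPKM in wild-type replicates 1, 2 and 3, and at 35.5, 21.3 and 32.4 FPKM in knockout replicates 1, 2 and 3. The groups overlapped, and as for gl4 and gl8 the highest value was that of wild-type replicate 3. On the log2 scale gl26 differed by -0.53 ± 0.47 (SE; limma adjusted p = 0.42), with a 95% interval of -1.66 to 0.59. Without wild-type replicate 3 it was -0.02 for gl26 and 0.17 for gl8, which reversed its sign; neither passed the test there.

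The balance among the elongase genes was compared within libraries. The ratio of gl8 to gl26, the pair of reductases, was 1.51, 1.38 and 1.39 in the wild type and 1.28, 2.11 and 1.69 in the knockout. The ratio of gl4 to gl8 was spread more widely, at 0.208 and 0.227 in wild-type replicates 1 and 2 and 1.42 in replicate 3, and 1.39, 0.55 and 1.82 in the knockout. The RNA level of gl4 was thus low relative to gl8 in wild-type replicates 1 and 2, where it was also 0.314 times that of gl26. This was not so in wild-type replicate 3. Enzyme amounts were not measured. None of the 3 ratios differed between genotypes by exact two-sided permutation tests (p = 0.3 for gl4/gl8, 0.3 for gl4/gl26 and 0.4 for gl8/gl26, each 0.4 after adjustment over the 3). With 3 libraries against 3 the smallest p is 0.1, so these tests could not pass the threshold.

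The gene gl1 encodes a membrane protein related to the Arabidopsis proteins CER1 and CER3, which form alkanes from very-long-chain acyl-CoA. Its level was 76.8, 62 and 217 FPKM in wild-type replicates 1, 2 and 3. In the knockout it was at 80.4, 134 and 111 FPKM. All knockout values were above wild-type replicates 1 and 2 and below replicate 3. The genotypes differed by 0.07 ± 0.50 on the log2 scale (SE; limma adjusted p = 0.93), with a 95% interval of -1.13 to 1.27. Without wild-type replicate 3 the log2 fold change of gl1 was 0.61 (limma adjusted p = 0.12).

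**Figure D2:**
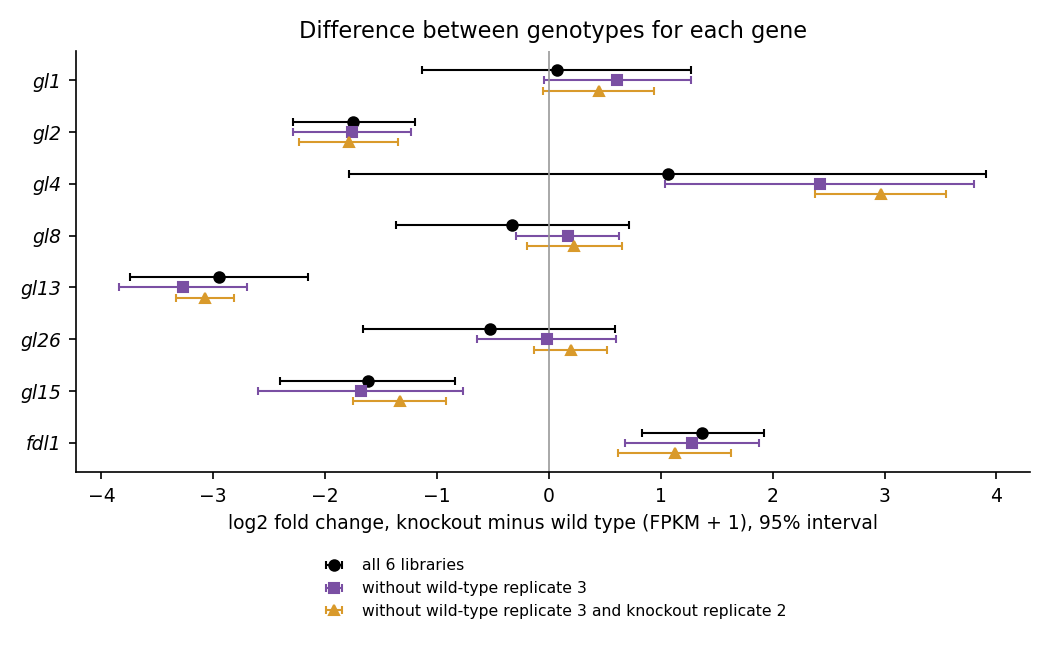
Log2 fold change of each gene, knockout minus wild type on log2(FPKM + 1), with 95% intervals from limma, for all 6 libraries (black circles), without wild-type replicate 3 (purple squares) and without that library and knockout replicate 2 (orange triangles). The values of gl2, gl13, gl15 and fdl1 keep their side of 0 in all 3 fits, and gl4 moves from 1.06 to 2.42 and 2.97.

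The gene gl15 encodes an APETALA2-like transcription factor that maintains the juvenile epidermis of the early leaves, wax included, and is a target of the microRNA miR172. Its level was 26.9, 20.9 and 20.5 FPKM in wild-type replicates 1, 2 and 3. In knockout replicates 1, 2 and 3 it was 8.07, 3.73 and 9.6 FPKM. The groups did not overlap, and knockout replicate 2 was the lowest of all. The mean was 22.7 ± 3.56 FPKM in the wild type and 7.13 ± 3.04 FPKM in the knockout (SD, n = 3 each). The level fell by 1.62 ± 0.32 on the log2(FPKM + 1) scale (SE), 3.07-fold (limma adjusted p = 0.012). With the libraries that stood apart left out the log2 fold change of gl15 was smaller, -1.33 (limma adjusted p = 0.0018), where 51.4% of the tested genes were called. That fit drops the lowest value of gl15 and with it part of the spread, so its lower p-value adds no weight.

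The gene fdl1, whose product is the R2R3-MYB factor MYB94, acts in cuticle formation and in keeping seedling organs separate. Its level was 6.25, 4.2 and 4.07 FPKM in wild-type replicates 1, 2 and 3. In knockout replicates 1, 2 and 3 it was 11.3, 17.5 and 13.5 FPKM. Every knockout library was above every wild-type library. The mean rose from 4.84 ± 1.22 to 14.1 ± 3.13 FPKM (SD, n = 3 each). On the FPKM + 1 scale, which understates the change of a gene this low, the rise was 2.59-fold (log2 fold change 1.37 ± 0.23, SE; limma adjusted p = 0.0061). It had the fewest reads of the 8 in the wild type, 93 to 149 per library, and 378 to 460 per knockout library.

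The regulators therefore changed places in the order of levels. The level of fdl1 was 0.233, 0.201 and 0.199 times that of gl15 in wild-type replicates 1, 2 and 3. In the knockout it was 1.41, 4.7 and 1.41 times that of gl15. In the wild type fdl1 was the lowest of the 8 genes in every library, and in the knockout gl15 was.

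The groups that did not overlap were those of the 4 called genes, against 49.4% of all tested genes without overlap. Of those 4, gl2, gl13 and gl15 were lower in every knockout library (24.5% of tested genes) and fdl1 was higher (25.0%).

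By mean level in the wild type the order was gl2, gl1, gl13, gl8, gl4, gl26, gl15 and fdl1. The ranges of neighbours overlapped from gl1 to gl26, and gl2, gl15 and fdl1 stood clear of their neighbours. In the knockout the order was gl2, gl1, gl4, gl8, gl26, fdl1, gl13 and gl15. There the ranges of gl2, gl1, gl4 and gl8 overlapped from neighbour to neighbour, and so did those of fdl1 and gl13. FPKM compares genes per length, and the gene lengths worked back from the files, 1266 bases for gl2 to 6053 bases for gl13, enter each level. The lengths of gl13 and of gl26 (4937 bases) are the longest of the 8, and whether these gene models include introns was not tested. A length that is too long would lower the level of its gene in all libraries alike, and with it the order of levels, the ratios to gl26 and the shares of the sum given here, but not the fold of that gene between genotypes beyond the effect of the added 1.

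The summed level of the 6 wax genes was 830, 722 and 1136 FPKM in wild-type replicates 1, 2 and 3. In knockout replicates 1, 2 and 3 it was 362, 383 and 471 FPKM. The wild-type mean, 896 ± 215 FPKM, was 2.21 times the knockout mean of 405 ± 57.9 FPKM (SD, n = 3 each; a description, not tested). Of the difference of the means, -491 FPKM, gl2 and gl13 together made up 89.5%. Without wild-type replicate 3 the difference was -371 FPKM, the sum of -469 FPKM for gl2 and gl13 and 98 FPKM for the other 4 genes, which were then higher in the knockout when added up. The make-up of the sum changed too: gl2 gave 63.1%, 61.5% and 40.9% in the wild type and 33.7%, 38.5% and 33.3% in the knockout. The 3 elongase genes gave 10.8% and 10.2% in wild-type replicates 1 and 2, 33.7% in wild-type replicate 3, and 39.6%, 23.8% and 39.7% in the knockout.

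**Figure D3:**
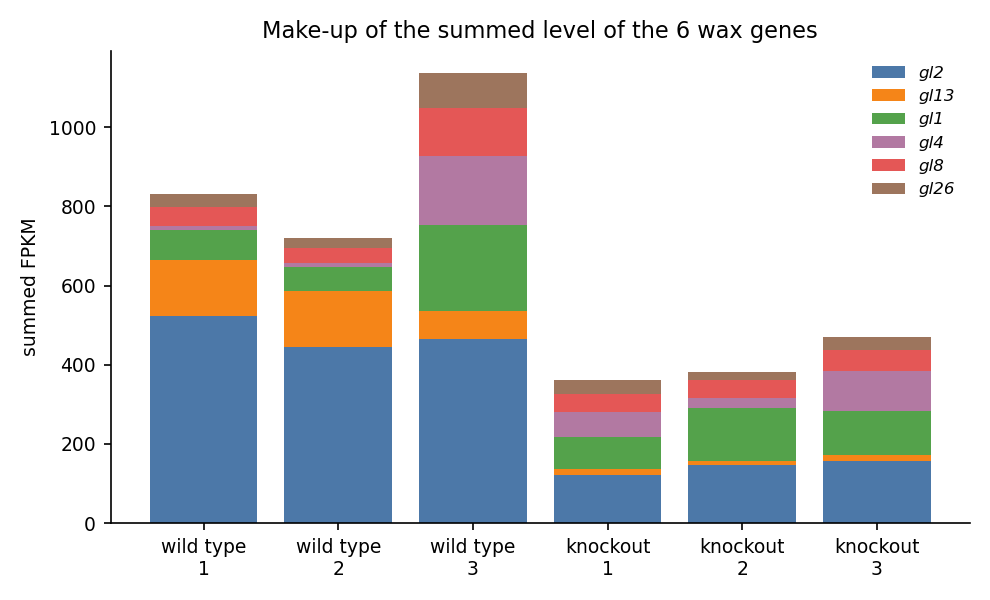
Summed FPKM of the 6 wax genes in each library (vertical axis from 0), stacked by gene. The knockout bars reach 362 to 471 FPKM against 722 to 1136 FPKM in the wild type, with narrower segments for gl2 and gl13, and wild-type replicate 3 has the widest segments for gl1, gl4, gl8 and gl26.

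The library that stood apart in the wild type did so to a different degree in each gene. In wild-type replicate 3, relative to the mean of replicates 1 and 2 on the FPKM + 1 scale, gl4 was 16.9 times as high, gl1 3.1 times, gl26 2.91 times and gl8 2.8 times. On the same scale gl2 was at 0.96 times, gl15 at 0.862 times and fdl1 at 0.815 times, and gl13 was lower, at 0.51 times. Thus 4 of the 8 genes were at least 2-fold higher there, against 9.22% of all tested genes, and on the deposited scaling none was at least 2-fold lower, against 6.97%, with gl13 just short of that limit. The deposited scaling set the factor of this library at 0.79 of its reads, against 0.96 to 1.12 in the others, which raises all its levels alike. After scaling by total reads the ratios were 13.8 for gl4, 2.53 for gl1, 2.37 for gl26 and 2.29 for gl8, and gl13, at 0.415 times, was then more than 2-fold lower. This scaling lowers the ratios of all genes in that library, and the share of tested genes past 2-fold was not computed for it.

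Knockout replicate 2 departed in other members. Relative to the mean of knockout replicates 1 and 3, gl4 was at 0.313 times and gl15 at 0.481 times, and these 2 of 8 genes were at least 2-fold lower, against 3.23% of the tested genes. None was at least 2-fold higher, against 6.75%. The other members lay between 0.638 times for gl26 and 1.4 times for gl1, with gl2 at 1.05 times. The labels give no harvest time or batch, and the part of either in these departures was not tested.

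**Figure D4:**
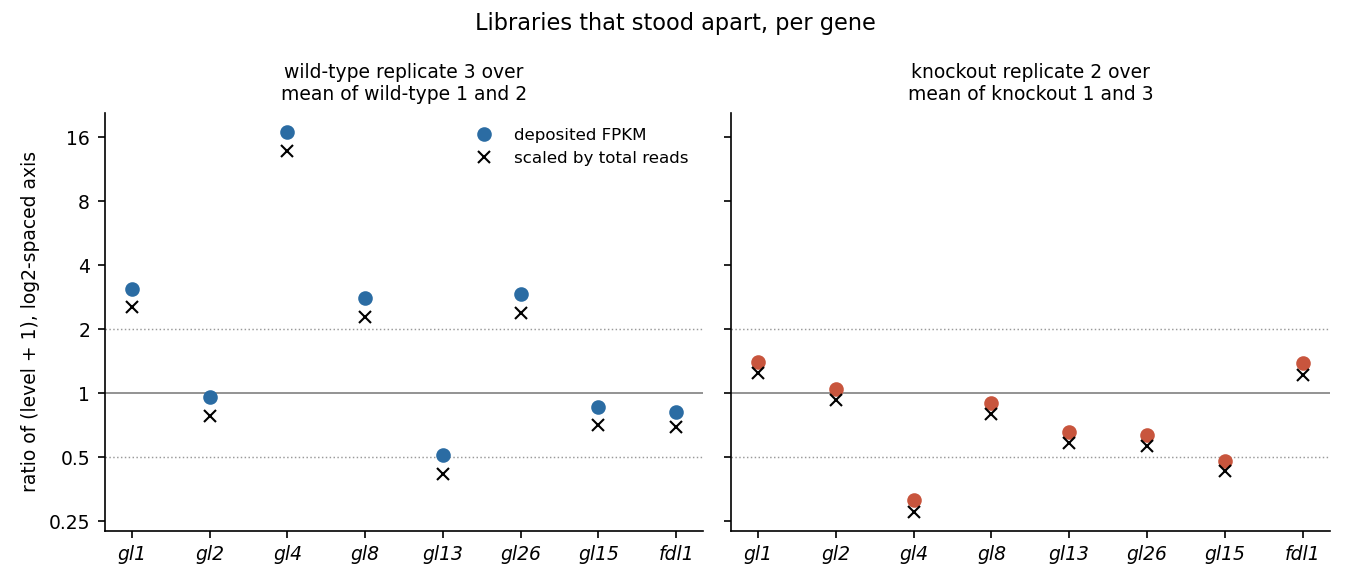
Ratio of (level + 1) of wild-type replicate 3 to the mean of wild-type replicates 1 and 2 (left) and of knockout replicate 2 to the mean of knockout replicates 1 and 3 (right), for each gene on a log2-spaced axis, from the deposited FPKM (filled) and after scaling by total reads (crosses). Dotted lines mark 2-fold, and gl4 lies farthest from 1 in both panels, at 16.9 and 0.313.

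Genes of like pattern were sought for the member with the largest rise and the one with the largest fall. Likeness was Pearson's r of log2(FPKM + 1) over the 6 libraries, which share their scaling and divide by genotype, so it is a description. For fdl1 the closest was Zm00001d020058 (r = 0.9995), at 6.74, 4.04 and 4.13 FPKM in the wild type and 13.4, 21.3 and 16 FPKM in the knockout, followed by Zm00001d012603 (r = 0.9985). For gl13 the closest was Zm00001d018485 (r = 0.9992), at 46.6, 50.9 and 30.8 FPKM in the wild type and 10.4, 6.99 and 10.1 FPKM in the knockout, followed by Zm00001d053923 (r = 0.9990). An r of at least 0.95 was reached by 810 genes (3.49%) for fdl1 and 1112 genes (4.79%) for gl13, so such likeness was common.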

How the data were processed

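FPKM values per gene and library were deposited by the authors without a header. The unit was inferred from the values and from TopHat2, Cufflinks and Cuffdiff, which the submitters' processing notes name with build B73 RefGen_v4. Which tool gave the values was not checked. The sources used here do not give versions, annotation file, filters or strandedness, and overlapping or antisense genes cannot be separated. Reads (or read pairs) were worked back as the whole numbers, within 0.05, that fit a whole gene length in all 6 libraries, which was possible for all 31946 genes above 0. Genes with few reads can meet this by construction. Reads are not independent molecules.

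The 23232 genes that reached 1 FPKM in 3 or more libraries were tested two-sided with limma 3.58.1 in R 4.3.3 (trend and robust options, all 6 libraries, no block), and p-values were Benjamini-Hochberg adjusted. The script was tested on simulated data. The labels say biological replicates without more. The p-values set the genotype difference against the spread between these libraries, moderated over all tested genes, and not against a known spread between plants. Python 3.11.15 and scipy 1.17.1 gave the exact permutation tests. The members, lists and settings were chosen with earlier results of these data known. All 8 members are named; the other genes named are, for the called members with the largest rise and fall, the 2 most alike by r, by identifier only. Other wax genes and markers, listed by symbol, had no identifier here (0 matches), and no sequence or promoter was used here.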

Additional observations from a re-analysis of the deposited data

How the results depend on the processing

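The calls of gl2, gl13, gl15 and fdl1 held in all 18 alternatives, with log2 fold changes of -1.82 to -1.46, -3.27 to -2.65, -1.85 to -1.22 and 0.95 to 1.55; the highest limma adjusted p was 0.049, for gl15. No alternative called gl1, gl8 or gl26. Members called numbered 4, or 5 with gl4 added under library weights (log2 fold change 2.93), where 14976 of 23232 tested genes were called. They also numbered 5 without wild-type replicate 3 (8614 called) and without that library and knockout replicate 2 (11952). Single libraries left out gave 4 to 5. Among uncalled members the sign turned for gl8 and gl26 under library weights (0.15 and 0.02) and without both libraries (0.22 and 0.20), and with single libraries left out gl1 ran from -0.28 to 0.61, gl8 from -0.66 to 0.17, gl26 from -0.85 to -0.02 and gl4 from 0.33 to 2.42. All tested genes called numbered 7238, 14976 under library weights, 11952 without both libraries, 4579 with a replicate block and 4212 to 8614 with single libraries left out (4639 without wild-type replicate 1, 4650 without knockout replicate 1, 4212 without knockout replicate 3); the cause was not tested. The block changed no call of a member. Deviations of same-numbered libraries correlated at 0.15, -0.37 and -0.20, so no pairing by replicate number was seen. Deviations from a mean of 3 libraries depend on each other, so these values cannot settle pairing. Scaling by total reads moved the median log2 fold change of all tested genes from 0.02 to 0.20, and the rising share of calls from 48.8% to 61.3%. The difference in the summed level was -491 FPKM, and -578 to -371 FPKM with single libraries left out. The difference in the gl4/gl8, gl4/gl26 and gl8/gl26 log2 ratios ran over 0.98 to 2.36, 1.24 to 2.56 and 0.04 to 0.41 with single libraries left out, an alternative chosen after seeing the data. The planned count test with edgeR was not run because the deposited unit is FPKM. In its place limma-voom, a limma fit for counts, was run on the reads worked back as 1 of the 18 alternatives, and it called 4 members. Promoter motifs were not run because no promoter sequences were used here. The lowest read numbers, 93 to 149 for fdl1 in the wild type and 122 for gl15 in knockout replicate 2, carry the widest counting error.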
